A study of Mus musculus with 3 samples.

Results

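Rag1, Rag2 and Dntt, the lymphoid genes that carry out V(D)J recombination, were followed through mouse thymocytes that had been profiled by single-cell RNA sequencing. The 3 genes were taken by symbol from the raw count matrices and make up 3 of the 28692 genes listed in each of the first 2 runs and of the 32285 listed in the third. All samples came from C57BL/6 mice of 6 weeks, with 4 thymi pooled for each library, and CD4+ and CD8+ cells were depleted on magnetic beads before sorting. Run 1 held total DN (CD4- CD8-) thymocytes together with TCRγδ+ thymocytes. Run 2 held the CD44+ DN1 and DN2 thymocytes, with TCRγδ+ cells gated out. Run 3 pooled 3 sorts into a mixture for loading, namely DN1 with DN2 cells, DN3 cells, and TCRγδ+ cells. Cells that stained for CD4, CD8, B220, CD11b, CD11c, NK1.1 or TCRβ were dumped by the sort. Each sort was made once, so that the runs are not exact replicates of each other. The p-values below measure the spread of differences within runs. For comparisons of 2 groups they rest on 1 or 2 residual degrees of freedom. To these the test adds a spread shared across genes, weighted with 14.1 to 99.5 degrees of freedom. The labels name no altered gene and no agent.

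RAG1 and RAG2 form the nuclease that cuts DNA at the recombination signals beside V, D and J segments. RAG1 holds the active site, and RAG2 is its required partner. Terminal deoxynucleotidyl transferase (TdT), the product of Dntt, adds nucleotides without a template at the cut ends before they are joined, which widens the diversity of receptors. In the thymus, progenitors pass from DN1 through DN2 to DN3, where Tcrb is rearranged, and cells with a productive chain go through β-selection and divide as DN4 cells. RAG2 protein is degraded as cells enter S phase, after phosphorylation by cyclin A and CDK2 and ubiquitination by the SKP2 ligase, which keeps cutting away from replication.

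In the GENCODE annotation of GRCm38, the build of the deposited counts, Rag1 (ENSMUSG00000061311) lies on the minus strand at chr2:101638282-101649501 and has 2 exons. Rag2 (ENSMUSG00000032864) lies on the plus strand at chr2:101624718-101632529 and has 3 exons in its first transcript. The genes point toward each other, with 5752 bases between their ends. Dntt (ENSMUSG00000025014) lies on another chromosome, at chr19:41029275-41059525 on the plus strand, and has 12 exons. The gene B230118H07Rik spans the whole Rag locus on the minus strand. It shares 80 exonic bases with Rag1 (1.21% of its exonic bases) on the same strand and 208 exonic bases with Rag2 (6.07%) on the opposite strand, so that reads of the bases shared on the same strand cannot be told apart.

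The promoters are shown because the members rose at different stages. Each window runs from 250 bases before to 50 bases after the RefSeq start (GRCm38.p6), 5′ to 3′ on the strand of the gene, with E-boxes (CANNTG, the letters that E proteins such as E2A and HEB read) in capitals. They lie at chr2:101649483-101649782 on the minus strand for Rag1, chr2:101624462-101624761 on the plus strand for Rag2 and chr19:41029025-41029324 on the plus strand for Dntt.
Rag1 promoter: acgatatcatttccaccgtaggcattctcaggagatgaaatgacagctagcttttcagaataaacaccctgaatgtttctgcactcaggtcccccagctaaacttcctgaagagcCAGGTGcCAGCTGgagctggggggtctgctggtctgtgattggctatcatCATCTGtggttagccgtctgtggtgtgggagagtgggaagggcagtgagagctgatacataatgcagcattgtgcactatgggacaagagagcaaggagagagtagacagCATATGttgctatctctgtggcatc
Rag2 promoter: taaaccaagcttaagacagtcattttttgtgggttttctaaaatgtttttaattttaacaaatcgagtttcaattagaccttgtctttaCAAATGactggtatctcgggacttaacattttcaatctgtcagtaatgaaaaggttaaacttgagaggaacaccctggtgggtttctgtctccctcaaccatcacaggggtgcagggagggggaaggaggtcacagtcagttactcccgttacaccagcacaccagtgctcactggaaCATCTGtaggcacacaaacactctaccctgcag
Dntt promoter: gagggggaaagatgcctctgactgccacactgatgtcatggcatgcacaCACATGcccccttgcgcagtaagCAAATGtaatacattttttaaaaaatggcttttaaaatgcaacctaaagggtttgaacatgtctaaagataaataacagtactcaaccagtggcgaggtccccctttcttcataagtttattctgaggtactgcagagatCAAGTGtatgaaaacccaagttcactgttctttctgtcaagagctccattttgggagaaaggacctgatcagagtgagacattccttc
The Rag1 window held 4 E-boxes, at 135, 128 and 85 bases before the RefSeq start and at base 26 from it. The RefSeq start of Rag1 lies upstream of its GENCODE start, so that the E-box at base 26 is outside the gene positions given above. Rag2 held 2, at 161 bases before the start and at base 18 from it, and Dntt held 3, at 201, 178 and 38 bases before the start. These letters are common, since 72.3% of 32851 promoter windows of the same length held at least 1 E-box. The Runx letters TGTGGT were found on either strand at 2 places of the Rag1 window, 81 and 67 bases before the start, and in neither of the other windows (16.8% of all windows). Of the other motifs searched on both strands, the Ikaros letters TGGGAA (25.6% of all windows) occurred in the Rag1 window and the Gata letters AGATAA (11.2%) in the Dntt window, 1 match each. The Ets letters CGGAAG (16.9%), the Foxo letters GTAAACA (3.65%) and the Tcf/Lef letters CTTTGA (16.0%) occurred in none of the 3 windows. In the Rag1 window, the E-box at 85 bases and the Runx match at 81 bases before the start share 2 letters. A match is a description of the letters only.

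The deposited matrices summed to 39947415, 52797915 and 98533329 UMIs in runs 1, 2 and 3, from 5527, 8887 and 8869 cells. A filter of 500 to 5000 detected genes, with mitochondrial UMIs not above 7%, left 5516, 8852 and 7511 cells with medians of 5989.5, 4844 and 8507 UMIs. Run 3 lost 552 cells to the upper limit on genes, against 3 and 2 in the other runs. Runs 1 and 2 shared 72 cell barcodes, runs 1 and 3 shared 3, and runs 2 and 3 shared none (0). A shared barcode need not be a shared cell, and fits without run 1 or without run 2 hold no pair of the 72. Kept cells held 2605, 1346 and 7412 UMIs of Rag1, 1075, 1057 and 1113 of Rag2, and 40555, 65461 and 68240 of Dntt.

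Each kept cell was placed in a gate by the UMIs of fixed marker genes. The DN1 gate needed Kit, Flt3 or Cd34 without Il2ra or Ptcra. The DN2 gate needed Il2ra with Kit or Cpa3 and no Ptcra, the DN2b gate Ptcra with Kit or Cpa3, the DN3 gate Il2ra and Ptcra without Kit or Cpa3, and the DN4 gate a coreceptor gene without Il2ra, Kit or Cpa3. The γδ gate needed Trdc, at least 2 of Sox13, Etv5, Blk and Id3, and no Ptcra. These are transcript gates and not the sort, as the 812 cells of run 2 in the DN3 gate (9.17% of its cells) came from a CD44+ sort, and the γδ gate took 515 of its cells (5.82%) although TCRγδ+ cells had been gated out. Notch3, which is not a gate gene and is known to rise on entry to DN3, stood at 84.2, 57.9 and 154 CPM (UMIs of the gene per 1000000 UMIs) in the non-cycling DN3 gate of runs 1, 2 and 3, against 29.0, 15.1 and 31.3 CPM in the DN2 gate. Cells with at least 1 UMI each of Mki67 and Top2a were called cycling, those with none of either non-cycling, and cells with only 1 of the genes were left out of both. Levels are CPM over all UMIs of the cells in a gate, status and run with at least 30 cells, with exact Poisson 95% intervals. Intervals cover counting error only.

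Rag1 was low in DN1 and DN2 gates and peaked in the DN3 gate. In non-cycling cells, the DN3 gate held 187.5 CPM in run 1 (interval 170 to 206, 561 cells), 149 CPM in run 2 (133 to 167, 439 cells) and 493 CPM in run 3 (473 to 513, 619 cells). In the DN2 gate, Rag1 stood at 26.8, 9.35 and 35.3 CPM, and in the DN2b gate, between them in stage, at 83.5, 61.4 and 331 CPM. The order DN2, DN2b, DN3 held in all 3 runs without overlap of the intervals. The DN1 gate gave 12.0 CPM in run 2 (5.99 to 21.5) and 9.48 CPM in run 3 (2.58 to 24.3), from 11 and 4 UMIs, and had too few cells in run 1. Cells with Il2ra alone stood at 59.1, 43.9 and 136 CPM, and cells with Ptcra alone at 181, 149 and 440 CPM. The interval of the gate with Ptcra alone overlapped that of the DN3 gate in each run.

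A level of Rag1 to set as background was taken from the NK receptor and type 17 gates. That their cells lack Rag1 was assumed and not tested. In run 2 the NK receptor gate took 2090 cells (23.6% of the run) from a sort for DN1 and DN2. Whether these are DN1e cells, which the paper parted by CD314 (NKG2D) among other markers, was not tested. The NK receptor gate (at least 3 NK receptor markers) gave 5.58 CPM in run 2 (3.89 to 7.76) and 13.3 CPM in run 3 (10.5 to 16.7), and the type 17 gate gave 4.31 and 6.37 CPM. The intervals of the DN1 gate overlapped those of the NK receptor gate in both runs. In run 2 the interval of the DN2 gate (7.04 to 12.2) overlapped that of the NK receptor gate too. No test between these gates was made, and an overlap does not show that the levels are equal. After every cell had been thinned to 2000 UMIs, 28.5%, 24.8% and 55.8% of non-cycling DN3-gate cells had a Rag1 UMI in runs 1, 2 and 3, against 0.678% and 0.787% in the NK receptor gate of runs 2 and 3. In the non-cycling DN1 gate of these runs the shares were 2.55% and 4.17%, of 157 and 48 cells. These values are higher than those of the NK receptor gate but rest on few cells. The DN1 gate held only 11 and 4 Rag1 UMIs before thinning, and the difference was not tested. The DN2 gate of run 2 gave 1.52%. Before thinning, the median cell of the DN3 gate held 3323, 4491 and 7103 UMIs, and that of the NK receptor gate 2740 and 5627 UMIs. Unthinned shares with Rag1 were 46.3%, 44.9% and 86.3% in the DN3 gate and 1.30% and 2.92% in the NK receptor gate. The 76 Rag1 UMIs of the NK receptor gate in run 3 thus lay in 2.92% of its 890 cells. Its level is a mean carried by few cells, and whether these were doublets or misplaced cells was not tested.

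Rag2 followed a shallower course than Rag1. The non-cycling DN3 gate held 55.0, 55.5 and 42.5 CPM in runs 1, 2 and 3 (intervals 45.8 to 65.4, 46.0 to 66.5 and 36.8 to 48.9). In the DN2 gate, Rag2 stood at 19.0, 18.7 and 11.4 CPM, below the DN3 gate in each run. The DN2b gate gave 21.3, 20.7 and 31.8 CPM. In runs 1 and 2 the intervals of the DN2b gate overlapped those of the DN2 gate, where Rag1 had already risen, and in run 3 they did not. The DN1 gate gave 14.2 CPM in run 2 (7.55 to 24.3, 13 UMIs) and 9.48 CPM in run 3 (4 UMIs). The NK receptor gate held 2.71 CPM in run 2 (1.58 to 4.34) and 1.76 CPM in run 3 (0.842 to 3.23), so that the DN1 gate of run 2 and the DN2 gates of runs 2 and 3 stood above this background, while the DN1 gate of run 3 (2.58 to 24.3) overlapped it. The type 17 gate of run 3 held 0 Rag2 UMIs in 293 cells, and its interval reached 1.38 CPM. After thinning, 11.4%, 9.11% and 7.62% of non-cycling DN3-gate cells had a Rag2 UMI, against 0.313% and 0.112% in the NK receptor gate.

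Dntt was already high before the DN3 stage. The non-cycling DN1 gate held 1165 CPM in run 2 (1096 to 1237) and 647 CPM in run 3 (573 to 729). The DN2 gate held 1729, 1699 and 1511 CPM in runs 1, 2 and 3, the DN2b gate 1621, 1920 and 1518 CPM, and the DN3 gate 1515, 1849 and 1352 CPM. From DN2 to DN3 the level went down in runs 1 and 3 and up in run 2, and no direction was shared by all 3 runs. The NK receptor gate held 247 and 112 CPM and the type 17 gate 108 and 65.2 CPM in runs 2 and 3. In thinned cells, 92.3%, 95.9% and 90.9% of the DN3 gate had a Dntt UMI, against 15.9% and 12.1% of the NK receptor gate. The share of the NK receptor gate is well above that of the Rag genes. How much of it is free RNA was not tested.

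**Figure D1:**
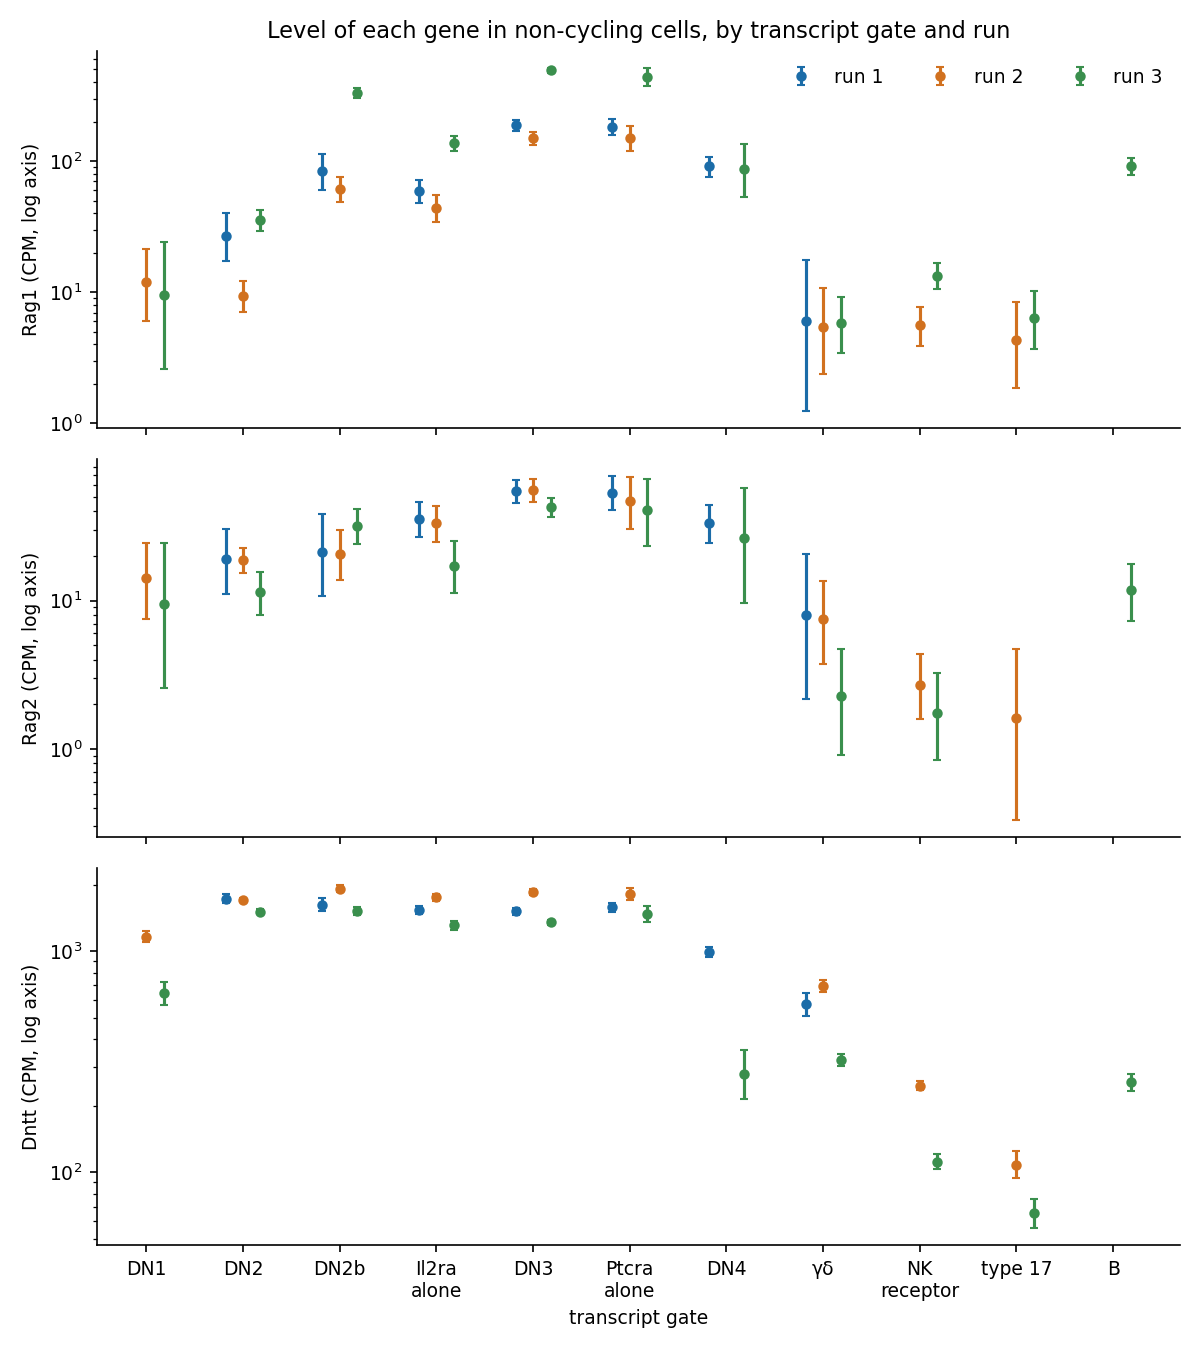
Levels of Rag1, Rag2 and Dntt in non-cycling cells by gate (x axis) in CPM on a log axis, with 1 point for each run and exact Poisson 95% intervals as bars; sums without a UMI are not drawn. Rag1 climbed from 9.35 to 35.3 CPM in the DN2 gate to 149 to 493 CPM in the DN3 gate. Rag2 climbed from 11.4 to 19.0 CPM to 42.5 to 55.5 CPM. Dntt stayed between 1352 and 1920 CPM in the DN2, DN2b and DN3 gates.

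Between the DN1 and DN2 gates, Dntt was the member that rose. Its difference in non-cycling cells was +0.86 ± 0.11 on the log2 scale (SE, 4 sums of 2 runs), or 1.81-fold, with an adjusted p of 2.02e-06 (edgeR's quasi-likelihood test with the run as block and Benjamini-Hochberg adjustment), and was upward in 2 of 2 runs. With stricter gates it was +1.63. For 4.27% of 9341 genes tested the adjusted p was under 0.05, with 1.57% higher and 2.7% lower in DN2. Rag1 differed by +0.61 ± 0.44 (adjusted p = 0.643) and Rag2 by +0.35 ± 0.42 (adjusted p = 0.838), both within the spread between sums. Rag1 was upward in 1 of the 2 runs. The test rests on 1 residual degree of freedom plus the spread shared across genes. Non-cycling DN1-gate cells held 39.3 and 37.9 CPM of Trac in runs 2 and 3, against 11.9 and 6.45 CPM in the DN2 gate. DN1 cells without a UMI of Kit, Flt3 or Cd34 fell outside the gate. The make-up of the DN1 gate was not tested, so that the step need not be one of stage alone.

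Between the DN2 and DN3 gates, both nuclease genes rose and Dntt did not. Rag1 rose by 3.75 ± 0.12 on the log2 scale, or 13.5-fold, in 3 of 3 runs (adjusted p = 1.98e-16), and was the gene of rank 2 by p among 9411 tested. Rag2 rose by 1.69 ± 0.15, or 3.23-fold, in 3 of 3 runs (adjusted p = 3.95e-09). For Dntt the difference was -0.05 ± 0.06 (adjusted p = 0.651). Leaving out each run in turn gave 3.61 to 3.89 for Rag1 and 1.58 to 1.81 for Rag2, and stricter gates moved Rag1 to 5.04. The background was 15.7% of genes called, with 7.03% higher and 8.64% lower in DN3. The gates use Kit, Cpa3, Il2ra and Ptcra, so that these and the other gate genes, 42 in all, were not tested. Thresholds of the gates were set after member values had been seen, which the p-values of tests between gates do not take into account. With UMIs per cell in place of scaled totals, the median of all genes lay at -0.26, and the differences were 3.38 for Rag1, 1.41 for Rag2 and -0.29 for Dntt.

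Non-cycling cells of the γδ gate held little of either nuclease gene and an intermediate level of Dntt. In run 2 these cells came from a sort that left out TCRγδ+ cells, and in runs 1 and 3 from sorts that took them in. The test thus joins cells of unlike sorts. Rag1 stood at 6.00, 5.47 and 5.84 CPM in runs 1, 2 and 3, from 3, 8 and 18 UMIs. Rag2 stood at 8.00, 7.52 and 2.27 CPM, from 4, 11 and 7 UMIs. Dntt stood at 576, 696 and 323 CPM, and the intervals lay below those of the DN3 gate in all runs and above those of the NK receptor gate in runs 2 and 3. Against the DN3 gate, the log2 differences were -5.85 ± 0.23 for Rag1 (adjusted p = 2.00e-11), -3.39 ± 0.26 for Rag2 (adjusted p = 3.33e-08) and -1.62 ± 0.12 for Dntt (adjusted p = 1.92e-08, 3.07-fold lower), each downward in 3 of 3 runs. The fold rests on few UMIs in the γδ gate and moved with the processing, to -4.81 for Rag1 without run 3 and -7.11 with thinned cells, and to -2.85 for Rag2 without run 3 and -5.05 with stricter gates. For Dntt stricter gates gave -2.33. For 28.9% of 9133 genes the adjusted p was under 0.05, with 15.1% higher and 13.7% lower in the γδ gate. After thinning, 0.806%, 0% and 0.696% of γδ-gate cells had a Rag1 UMI, and the exact binomial interval of run 2 (0 of 373 cells) reached 0.984%. The NK receptor shares were 0.678% and 0.787% in runs 2 and 3. In CPM, the NK receptor gate held 5.58 and 13.3 of Rag1 in these runs, and the γδ gate 5.47 and 5.84. Rag1 of the γδ gate was thus not above that of the NK receptor gate in runs 2 and 3. Run 1 had 12 non-cycling NK receptor-gate cells, too few to compare. In Rag2 the γδ interval of 0.914 to 4.68 CPM in run 3 overlapped that of the NK receptor gate, as did that of run 2 (3.76 to 13.5 CPM).

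The DN4 gate was filled mainly in run 1, where total DN cells had been sorted. Its 220 non-cycling cells held 91.0 CPM of Rag1 (76.1 to 108), 33.3 CPM of Rag2 (24.6 to 44.2) and 992 CPM of Dntt (941 to 1045), each below the DN3 gate of the same run without overlap of the intervals. Its 611 cycling cells held 59.3, 25.7 and 788 CPM. In cycling cells with 1 coreceptor UMI, Rag2 stood at 15.9 CPM (10.9 to 22.5, 180 cells), and in those with 2 or more at 29.4 CPM (24.9 to 34.4, 431 cells). For Rag1 these values were 45.7 and 64.5 CPM, and their intervals were also apart. The intervals leave out the spread between cells, and over all 611 cells the variance of Rag1 UMIs was 1.55 times the mean. The difference was seen in 1 run and was not tested. In non-cycling cells no such difference was seen, with 91.1 CPM (68.6 to 119) against 91.0 CPM (71.7 to 114) for Rag1 and 28.1 CPM (16.4 to 45.1) against 37.1 CPM (25.2 to 52.7) for Rag2. In run 3 the gate held 30 non-cycling cells with 87.4 CPM of Rag1, 26.2 CPM of Rag2 and 280 CPM of Dntt. Of these 30 cells, 26 had no Rag1 UMI and 27 no Rag2 UMI, so that both levels rest on few cells. With 1 run of such size, no test between DN3 and DN4 was made.

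B-lineage cells also rearrange receptor genes, and in run 3 a gate of B-cell markers took 510 cells although B220 was in the dump gate. Its 310 non-cycling cells held 91.4 CPM of Rag1 (78.3 to 106), 11.7 CPM of Rag2 and 255 CPM of Dntt. The 172 UMIs of Rag1 lay in 55 of these cells (17.7%). Without the 27 cells taken out by the doublet score, Rag1 stood at 96.2 CPM. Cd3e, which marks T cells, stood at 164 CPM there, and its part in these values was not tested.

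Rag1 was the member that differed most between runs. In the non-cycling DN3 gate, run 3 held 2.63-fold as much Rag1 as run 1 and 3.30-fold as much as run 2. For Rag2 these ratios were 0.774 and 0.766, and for Dntt 0.892 and 0.731. The DN3-gate median per cell was 3 UMIs of Rag1 in run 3, with 85 of 619 cells at 0, against 0 UMIs in runs 1 and 2. The most that 1 cell held was 20 UMIs in run 3, and 6 and 5 UMIs in runs 1 and 2. B230118H07Rik, which shares exonic bases with Rag1, stood at 19.6, 22.1 and 29.5 CPM. The sort, the kit, the version of Cell Ranger and the gene list cannot be told apart here. Statements on Rag1 between gates were therefore made within runs.

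The ratio of Rag1 to Rag2 UMIs also changed between gates within each run. In non-cycling cells, the DN2 gate held 1.41, 0.5 and 3.11 Rag1 UMIs for each Rag2 UMI in runs 1, 2 and 3, and the DN3 gate held 3.41, 2.69 and 11.6. In cycling DN3-gate cells the ratio was 2.63, 1.496 and 4.67, lower than in non-cycling cells of the same run. The ratio is between UMIs and not between transcripts, and was not tested.

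In the DN3 gate, cycling cells held a smaller part of their UMIs as Rag1, while the number of Rag1 UMIs per cell was not lower in each run. Rag1 stood at 187.5, 149 and 493 CPM in non-cycling cells and at 71.7, 74.9 and 148 CPM in cycling cells of runs 1, 2 and 3, and the intervals did not overlap. The log2 difference was -1.33 ± 0.13, or 2.51-fold lower, in 3 of 3 runs (adjusted p = 1.09e-06). Dntt fell by 0.50 ± 0.11 on the log2 scale (adjusted p = 0.00171), from 1515, 1849 and 1352 CPM to 880, 1369 and 961 CPM. Rag2 fell by 0.45 ± 0.16 (adjusted p = 0.0306), from 55.0, 55.5 and 42.5 CPM to 27.2, 50.1 and 31.7 CPM, and the intervals overlapped in runs 2 and 3. The call on Rag2 was lost without run 1 (-0.18, adjusted p = 0.549), as was that on Dntt (-0.36, adjusted p = 0.304). In this comparison 41.6% of 9458 genes were called, 19% as higher and 22.6% as lower, so that a call alone does not set the members apart. A lower value than that of Rag1 was fitted for 2.81% of genes, than that of Rag2 for 26.2% and than that of Dntt for 23.7%.

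Cycling cells held more UMIs. A cell needed UMIs of both Mki67 and Top2a to be called cycling, and none of either for non-cycling, so that the split also follows depth. DN3-gate cells with only 1 of the genes lay between, with medians of 6818, 6916 and 7810 UMIs in runs 1, 2 and 3. How far the totals reflect RNA content was not tested. The median cycling cell of the DN3 gate held 3.59, 2.28 and 2.76 times the UMIs of the median non-cycling cell. Counted per cell, Rag1 was at 0.903, 0.835 and 2.79 UMIs in cycling cells and at 0.766, 0.722 and 3.67 UMIs in non-cycling cells, higher in runs 1 and 2 and lower in run 3. On this scale the fitted log2 difference was -9.10e-05 (SE 0.30, adjusted p = 0.9998), while the median of all genes stood at +1.24. Rag2 was at 0.343, 0.558 and 0.598 UMIs per cycling cell against 0.225, 0.269 and 0.317, a log2 difference of +0.86 (adjusted p = 1.27e-05). Dntt was at 11.1, 15.3 and 18.1 UMIs per cycling cell against 6.19, 8.95 and 10.1, a difference of +0.82 (adjusted p = 5.04e-05). The direction of Rag2 and Dntt thus turned with the scale, and all 3 members lay below the median gene on either scale. Calls split into 1800 higher and 2138 lower with scaled totals, and into 8270 higher and 57 lower with UMIs per cell.

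**Figure D2:**
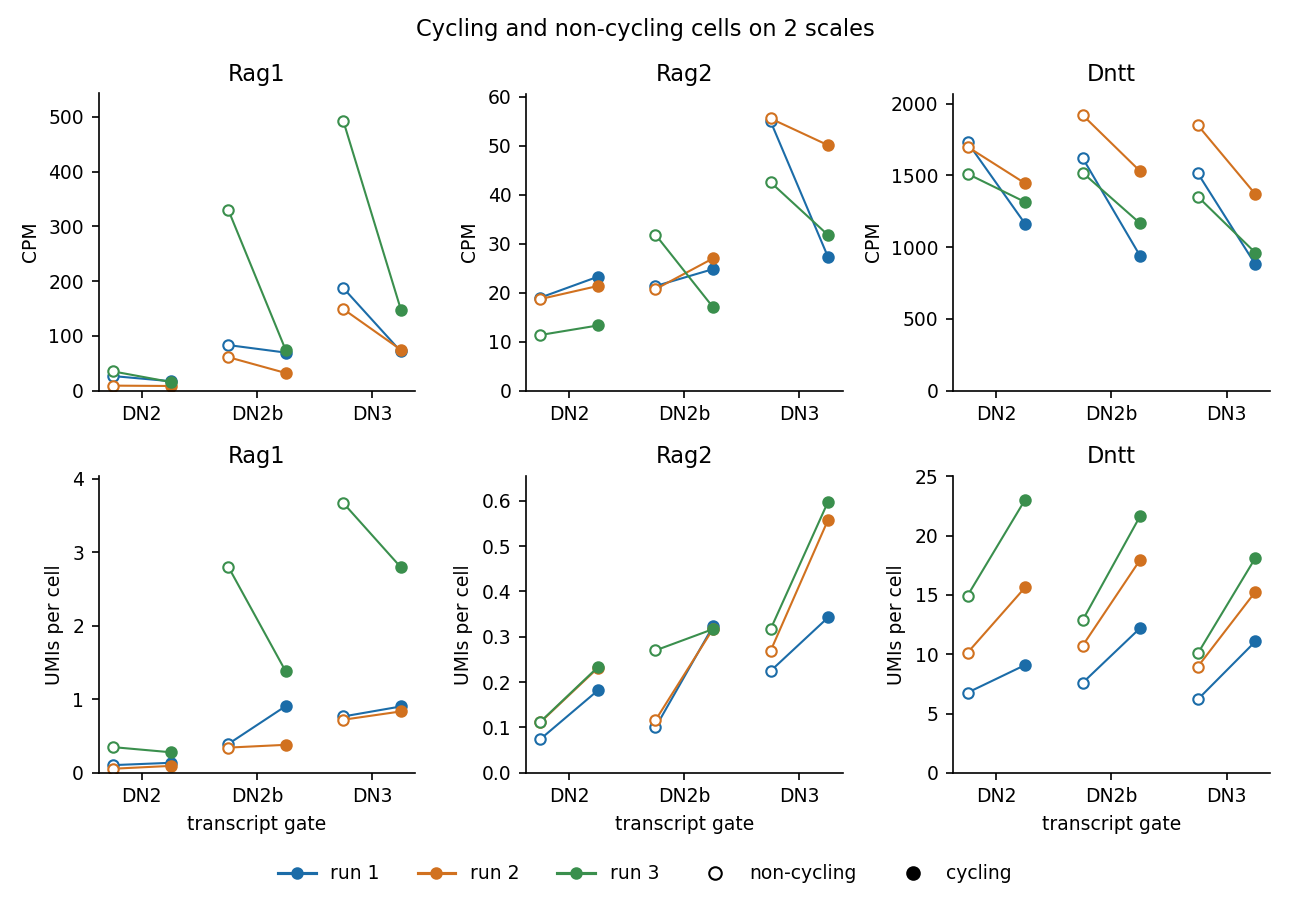
Levels of the members in non-cycling (open) and cycling (filled) cells of the DN2, DN2b and DN3 gates in each run, as CPM in the upper row and as UMIs per cell in the lower row. In the DN3 gate, Rag1 is at 149 to 493 CPM in non-cycling and 71.7 to 148 CPM in cycling cells, whereas per cell Dntt is at 6.19 to 10.1 and 11.1 to 18.1 UMIs.

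In thinned cells, 14.2%, 12.6% and 20.5% of cycling DN3-gate cells had a Rag1 UMI, against 28.5%, 24.8% and 55.8% of non-cycling cells. For Rag2 the shares were 4.09%, 8.74% and 8.04% against 11.4%, 9.11% and 7.62%, and were lower in run 1 and overlapped in runs 2 and 3. Within cycling DN3-gate cells, those with UMIs of both Ccnb1 and Cdc20, genes of G2 and mitosis, held 78.0 CPM of Rag1 in run 1 (67.4 to 89.8) and 145 CPM in run 3 (129 to 163). Cells with neither held 45.9 CPM in run 1 (28.4 to 70.2, 52 cells) and 175 CPM in run 3 (153 to 199.96, 86 cells), and the intervals overlapped those of the cells with both in each of these runs. Run 2 had 18 such cells, too few for a level.

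In the DN2 gate the same comparison gave smaller differences. Rag1 stood at 26.8, 9.35 and 35.3 CPM in non-cycling and 17.4, 8.71 and 16.0 CPM in cycling cells, a log2 difference of -0.72 ± 0.19 (adjusted p = 0.00412). The intervals were apart in run 3 only, and without that run the value was -0.20 (adjusted p = 0.661). With stricter gates it turned to +0.10 (adjusted p = 0.841). Dntt stood at 1729, 1699 and 1511 CPM against 1163, 1445 and 1314 CPM, and fell by 0.27 ± 0.06 on the log2 scale (adjusted p = 0.00107). Without run 1 it was -0.13 (adjusted p = 0.439). Rag2 stood at 19.0, 18.7 and 11.4 CPM against 23.3, 21.4 and 13.3 CPM, a difference of +0.27 ± 0.17 (adjusted p = 0.255). Here 32.4% of 9838 genes were called, 15.5% as higher and 16.9% as lower. Per cell, the median gene stood at +0.75, Rag1 at +0.10 (adjusted p = 0.676), Rag2 at +1.08 (adjusted p = 1.05e-05) and Dntt at +0.57 (adjusted p = 1.23e-06).

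The difference between the gates was tested itself. The interaction of gate and cycling status over 12 sums was -0.56 ± 0.29 for Rag1 (adjusted p = 0.368), -0.66 ± 0.24 for Rag2 (adjusted p = 0.176) and -0.18 ± 0.13 for Dntt (adjusted p = 0.523), where 0.574% of 10287 genes were called. A cycling difference particular to the DN3 gate was thus not detected for any member.

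In the γδ, NK receptor and B gates, Dntt was higher in cycling cells. Cycling γδ-gate cells held 696, 1372 and 645 CPM against 576, 696 and 323 CPM in non-cycling cells, and the intervals were apart in runs 2 and 3. Cycling NK receptor-gate cells held 1040 and 409 CPM in runs 2 and 3 (63 and 68 cells) against 247 and 112 CPM, and cycling B-gate cells of run 3 held 721 against 255 CPM. Rag2 was also higher in cycling cells of these gates. The NK receptor gate held 24.0 and 5.60 CPM of Rag2 in cycling cells of runs 2 and 3, against 2.71 and 1.76 CPM. The γδ gate held 10.5, 24.0 and 3.75 CPM of Rag2 against 8.00, 7.52 and 2.27 CPM, and the B gate 17.8 against 11.7 CPM. The Rag2 intervals were apart in run 2 only. For Rag1 no direction was shared across these gates. The cycling cells were also the deeper ones, with medians of 12413 and 17938.5 UMIs in the cycling NK receptor gate. Whether they held doublets with DN2 or DN3 cells was not tested, nor were these differences.

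**Figure D3:**
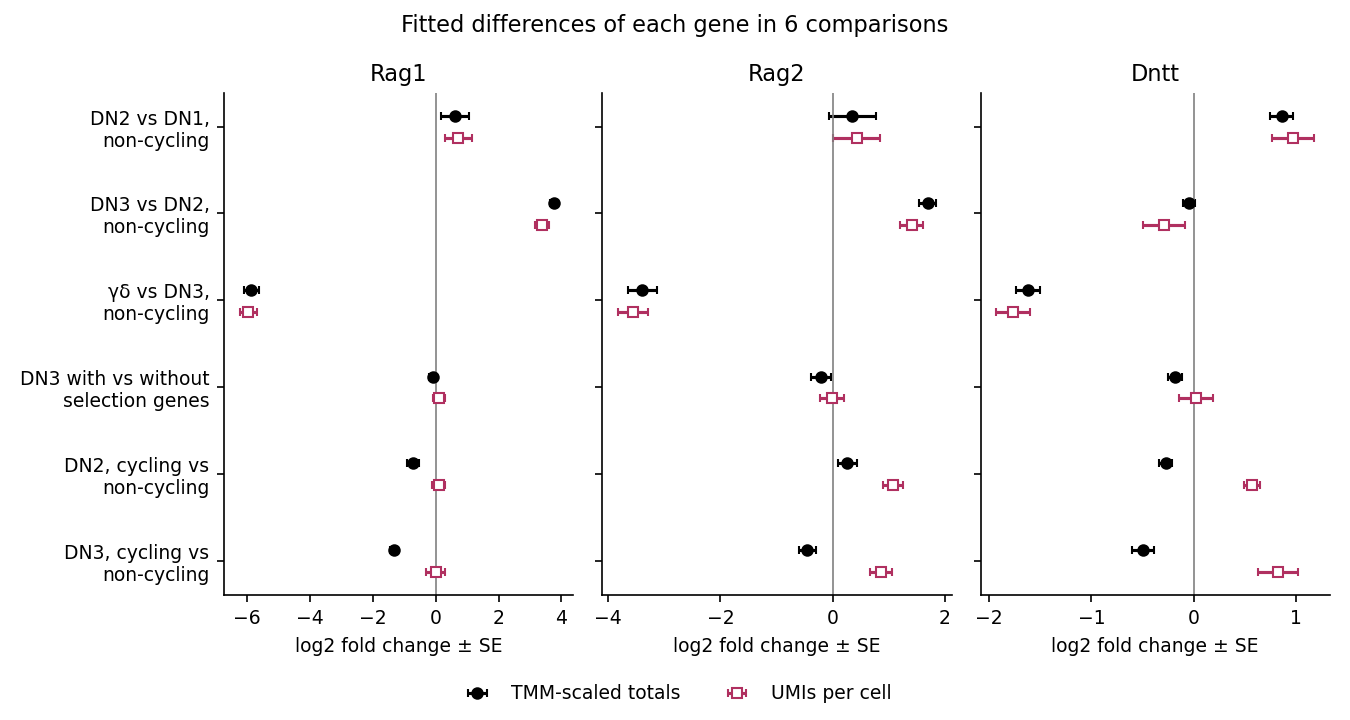
Log2 differences of the members in 6 comparisons, with SE as bars, from totals scaled by TMM (black) and from UMIs per cell (open squares). Rag1 spans the widest range, from +3.75 between the DN2 and DN3 gates to -5.85 between the DN3 and γδ gates, and Rag2 and Dntt turn sign with the scale in the DN3 cycling comparison.

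Cd28, Cd5, Egr1 and Nr4a1, which rise with pre-TCR signals, were used to part non-cycling DN3-gate cells. Cells with at least 1 of them held 144, 168 and 480 CPM of Rag1 in runs 1, 2 and 3 and cells with none held 199.8, 142 and 504 CPM. The log2 differences were -0.09 ± 0.12 for Rag1, -0.20 ± 0.18 for Rag2 and -0.18 ± 0.07 for Dntt (adjusted p = 0.951 for Dntt and 0.9999 for the Rag genes). Of 8573 genes, 4 (0.0467%) were called, 0.035% as higher and 0.0117% as lower, while 199 were higher and 131 lower at an unadjusted p under 0.05. Cells with a selection gene were deeper, with medians of 4498.5, 4673.5 and 7421.5 UMIs against 3223, 4464 and 6965 UMIs. Whether the split marks cells that had passed β-selection was not tested. The values therefore do not tell how the members change with β-selection.

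In thinned cells, where Rag2 was sparse, Rag1 and Rag2 were seldom caught together. In thinned non-cycling DN3-gate cells, both had a UMI in 22 of 561 cells of run 1 (3.92%, exact binomial 95% interval 2.47 to 5.88%), 10 of 439 cells of run 2 (2.28%, 1.10 to 4.15%) and 32 of 617 cells of run 3 (5.19%, 3.57 to 7.24%). The products of the separate shares were 3.25%, 2.26% and 4.25%, which lay within those intervals. More pairs than the product of the shares gives were thus not detectable at this depth. Without thinning, 11.1%, 11.8% and 22.5% of cells had both, while 19.8%, 21.0% and 25.5% had Rag2. Most cells with a Rag2 UMI thus also had Rag1 at full depth. Of all cells of the gate, 46.3%, 44.9% and 86.3% had a Rag1 UMI at that depth. The overlap alone therefore does not show that the 2 genes go together. Unthinned shares also follow the depth of the cells. In the DN2 gate, 1 of 229, 0 of 987 and 1 of 329 thinned cells had both, and the interval of run 2 reached 0.373%. Of DN3-gate cells with a Rag1 UMI, 92.5%, 98.2% and 90.1% also had Dntt, against 92.3%, 95.2% and 91.9% of cells without Rag1, so that Dntt was found in most cells of either kind.

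**Figure D4:**
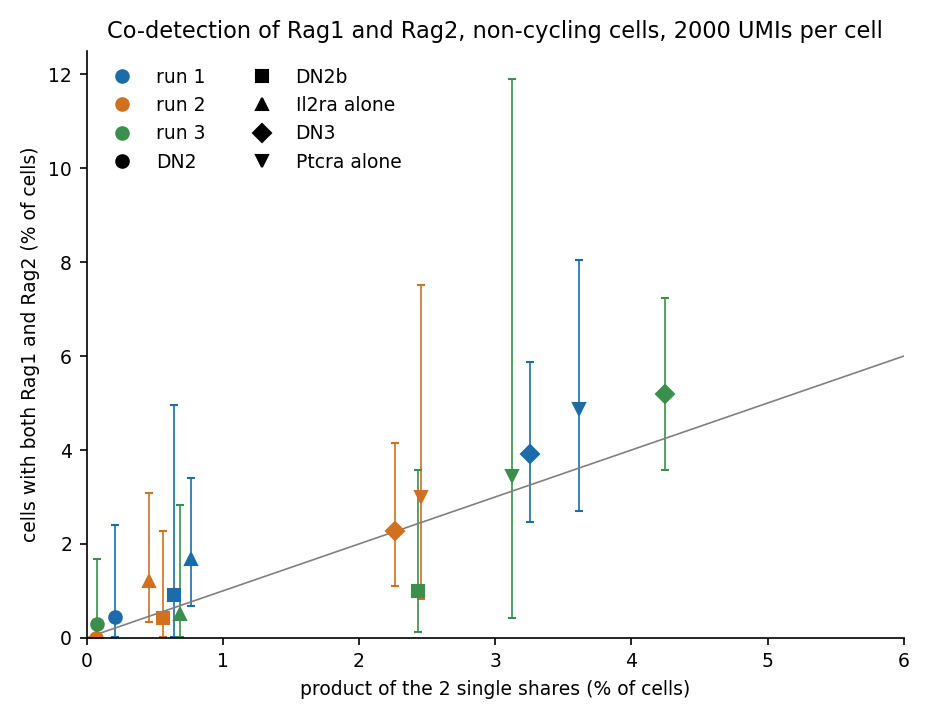
Observed share of thinned non-cycling cells with both Rag1 and Rag2 (y axis, percent, exact binomial 95% intervals) against the product of the separate shares (x axis, percent), with the line of equality. The DN3-gate points of the 3 runs, at 3.92%, 2.28% and 5.19%, have intervals that take in the line.

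The DN3 gate held more of the Rag1 UMIs than of all UMIs. It took 33.6%, 44.6% and 59.3% of Rag1 UMIs in runs 1, 2 and 3, against 19.9%, 10.7% and 15.8% of all UMIs. For Rag2 the shares were 26.0%, 25.9% and 43.3%, and for Dntt 21.6%, 14.0% and 21.6%. Dntt UMIs lay in the DN2 gate for 8.44%, 36.6% and 35.5%, and that gate held 6.09%, 29.5% and 22.6% of all UMIs. Per non-cycling DN3-gate cell, Dntt had a median of 6, 8 and 9 UMIs, and per cycling cell 11, 15 and 18 UMIs.

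Genes that join the cut ends, or that help RAG bind and bend DNA, moved in both directions between DN2 and DN3. Of 15 tested, 3 rose and 2 fell, where 7.03% and 8.64% of all genes did, and the median log2 difference was 0.02, as over all genes. Those that rose were Xrcc6 (+0.42 ± 0.07, adjusted p = 8.82e-05), which encodes Ku70, Dclre1c (+0.62 ± 0.20, adjusted p = 0.0398), which encodes the hairpin opener Artemis, and Paxx (+0.50 ± 0.13, adjusted p = 0.00946), a factor of end joining. With UMIs per cell, none (0) rose and 3 fell, where 189 of all 9411 genes rose and 1364 fell. Hmgb1 (-0.36 ± 0.05) and Hmgb2 (-0.30 ± 0.07), which bend DNA for RAG, were lower. With cycling in the DN3 gate, 3 rose, which were H2afx (+2.65 ± 0.13), Hmgb2 (+2.64 ± 0.14) and Hmgb1 (+1.31 ± 0.12), and 4 fell, which were Dclre1c (-1.19 ± 0.26), Lig4 (-0.83 ± 0.18), Paxx (-0.63 ± 0.14) and Xrcc4 (-0.46 ± 0.18), though with UMIs per cell 13 were higher and 0 lower. With scaled totals 19% of all genes rose and 22.6% fell, so that the counts of the list were near the background. Its median was -0.09 against -0.07 over all genes. With UMIs per cell 8270 of 9458 genes were higher and 57 lower, so that 13 of 15 was near the background too. In the DN2 gate 4 rose and 3 fell with cycling, against 15.5% and 16.9% of all genes. Between DN1 and DN2, where 1.57% of all genes rose, Hmgb1 passed the test (+0.53 ± 0.10). With UMIs per cell no gene of the list did, where 163 of 9341 genes rose and 202 fell. In the γδ gate, Trp53bp1 was higher (+0.63 ± 0.20) and Xrcc6 (-1.61 ± 0.12, adjusted p = 2.91e-08), Xrcc5 (-0.54 ± 0.18) and H2afx (-0.37 ± 0.13) were lower than in the DN3 gate, and with UMIs per cell 0 were higher and 6 lower. Over all genes, 15.1% were higher and 13.7% lower with scaled totals, and 957 and 1770 of 9133 with UMIs per cell.

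Transcription factors and Notch receptors that are known to regulate the early T lineage or the Rag locus were tested as 18 genes. Between DN2 and DN3, 3 rose and 4 fell with UMIs per cell, where 189 and 1364 of 9411 genes did. With scaled totals 6 rose and 4 fell, where 7.03% and 8.64% of all genes did. The median was then 0.19 against 0.02 over all genes. Notch3 rose by 2.08 ± 0.13, Lef1 by 1.73 ± 0.12 and Notch1 by 0.91 ± 0.07, as did Tcf12, which encodes HEB (+0.67 ± 0.08), Ets1 (+0.55 ± 0.07) and Bcl11b (+0.31 ± 0.06). Gata3 (-0.50 ± 0.09), Ikzf1 (-0.37 ± 0.08), Elf1 (-0.36 ± 0.09) and Myb (-0.35 ± 0.07) fell. Between DN1 and DN2, 4 rose and 3 fell with UMIs per cell, against 163 and 202 of 9341 genes. With scaled totals 5 rose and 3 fell, against 1.57% and 2.7% of all genes. Bcl11b (+1.20 ± 0.17), Myb (+1.04 ± 0.17) and Runx1 (+0.83 ± 0.17) were among those that rose beside Dntt, and Foxo1 (-1.97 ± 0.34), Lef1 (-1.34 ± 0.24) and Id2 (-0.97 ± 0.24) fell. Against DN3, the γδ gate had 6 higher and 5 lower with UMIs per cell, where 957 and 1770 of 9133 genes were. With scaled totals it had 8 higher and 5 lower, against 15.1% and 13.7% of all genes. Gata3 (+2.26 ± 0.11), Foxo1 (+1.93 ± 0.18), Lef1 and Ikzf1 (+1.04 each) were higher, and Notch3 (-2.95 ± 0.22), Notch1 (-2.41 ± 0.16), Gfi1 (-1.05 ± 0.21) and Runx1 (-1.01 ± 0.13) were lower, as was Myb (-0.56 ± 0.10). Lef1 was thus higher in the DN3 than in the DN2 gate and higher again in the γδ gate, where Rag1 was low.

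With cycling, 11 of the 18 regulators were lower and none (0) higher in the DN3 gate, and 14 were lower and none (0) higher in the DN2 gate. Over all genes, 22.6% were lower and 19% higher in the DN3 gate, and 16.9% and 15.5% in the DN2 gate. Their medians were -0.49 and -0.30, against -0.07 and -0.06 over all genes. Notch3 (-1.51 ± 0.16), Id2 (-0.98 ± 0.15), Foxo1 (-0.85 ± 0.25) and Notch1 (-0.82 ± 0.11) were lowest in the DN3 gate. Counted per cell the direction turned, with 15 higher and 0 lower in the DN3 gate and 14 higher and 0 lower in the DN2 gate. So did that of most genes, with 8270 of 9458 higher and 57 lower in the DN3 gate. In the DN2 gate 7636 of 9838 were higher and 56 lower, so that the counts per cell were near the background. The medians of the list were 0.83 and 0.53 against 1.24 and 0.75 over all genes. The list lay below the median gene on both scales in both gates, as did the members except for Rag2 in the DN2 gate.

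The genes that mark RAG2 protein for destruction are genes of the cell cycle, which the split by Mki67 and Top2a follows, and most rose with cycling. In the DN3 gate 5 of 6 rose (19% of all genes), namely Ccna2 (+4.18 ± 0.27), Cks1b (+2.31 ± 0.16), Skp2 (+1.54 ± 0.18), Cdk2 (+1.10 ± 0.16) and Cul1 (+0.34 ± 0.12), and Skp1a stood at +0.14 ± 0.11. In the DN2 gate 4 of 6 rose (15.5% of all genes). Between DN2 and DN3 in non-cycling cells, Cdk2 fell (-0.54 ± 0.13, adjusted p = 0.00584) and the other 5 passed no test. No gene of the 3 lists passed the test between DN3-gate cells with and without selection genes. These counts are of transcripts, and RAG2 protein was not measured.

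**Figure D5:**
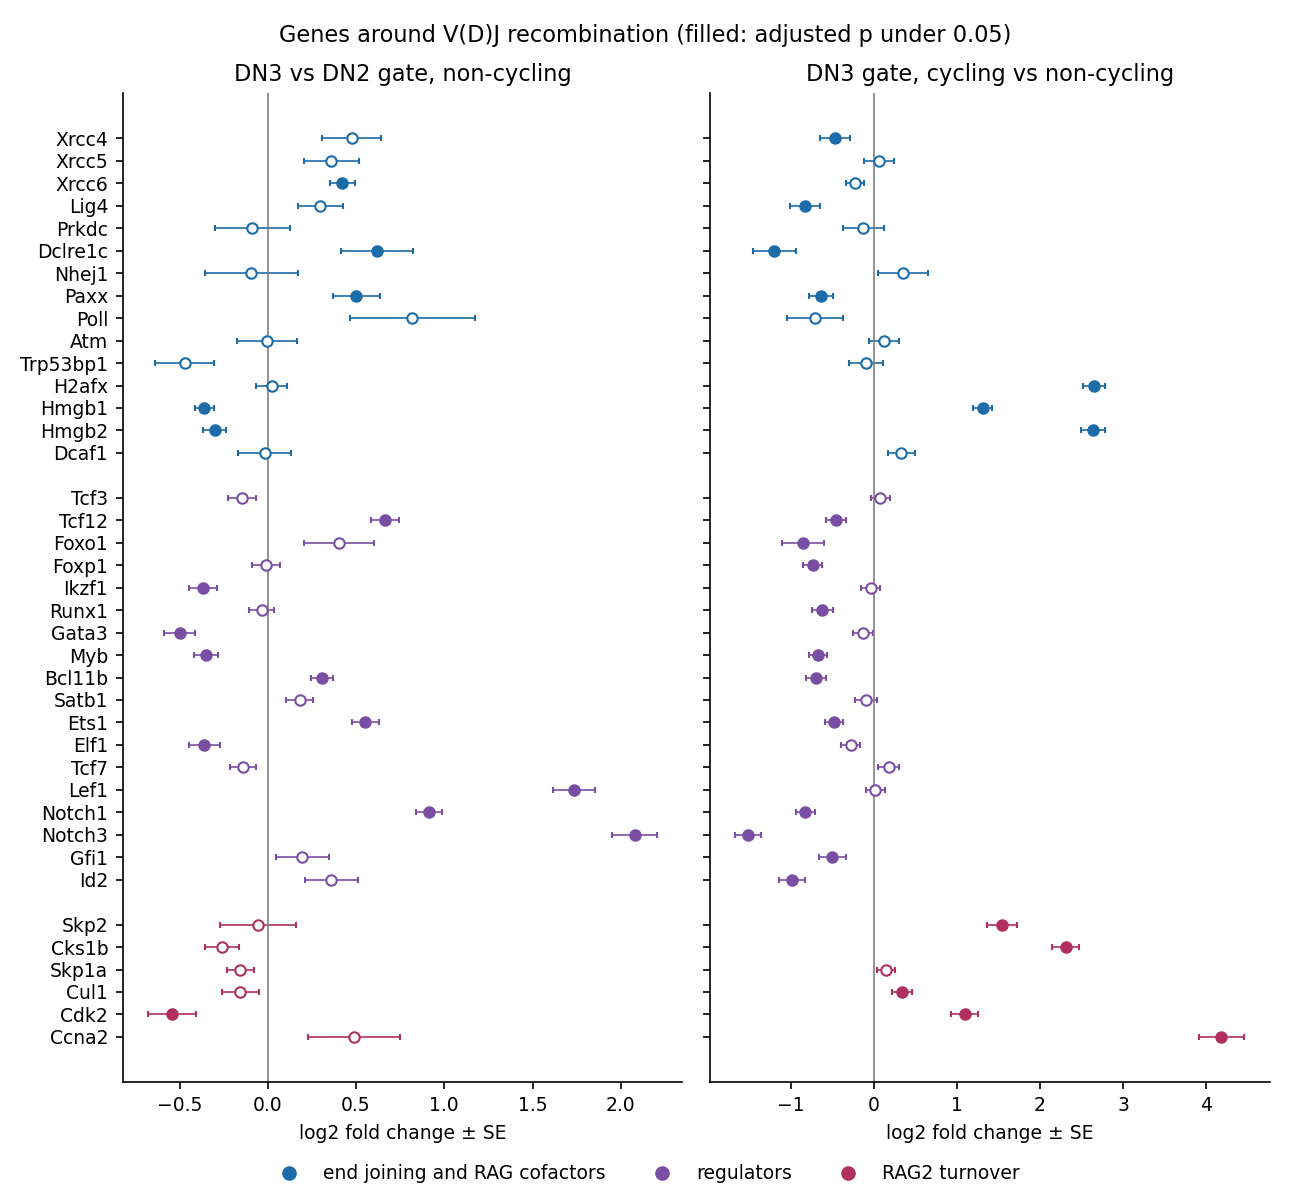
Log2 differences of the genes of the 3 lists between the DN3 and DN2 gates and with cycling in the DN3 gate, with filled points for an adjusted p under 0.05. With cycling, 11 of 18 regulators are called lower (median -0.49), while Ccna2, Cks1b, Skp2 and Cdk2 lie between +1.10 and +4.18.

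Genes whose pattern was most like that of a member were sought over 59 sums of gate, status and run by Pearson correlation of log2(CPM + 1), centred within runs, among 7711 genes. The sums of a run share a library, and the values are a description. For Rag1 these were Hsdl1 (r = 0.87), Slc5a9 (0.86), Dgkeos (0.86), Desi1 (0.83) and Bst1 (0.83). For Rag2 they were Dgkeos (0.91), Desi1 (0.91), Xrcc6 (0.90), Naxd (0.90) and Ly6k (0.89), so that Dgkeos and Desi1 were near both nuclease genes. For Dntt they were Prss57 (0.97), Cdk6 (0.97), Arpp21 (0.95), Marcks (0.94) and Myb (0.94), none of which was among the 5 of either Rag gene. Among the members, r was 0.80 between Rag1 and Rag2, 0.82 between Rag2 and Dntt and 0.57 between Rag1 and Dntt.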

How the data were processed

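Each library was a 10x Chromium library of thymocytes from pooled mice. The authors aligned the reads to mm10 with Cell Ranger and deposited the counts of UMIs for every gene in each called cell, as raw whole numbers. The header of the third run gives version 4.0.0, and the kit and version of each of the other runs are not given in the sources used here. The study's limits (500 to 5000 genes, 7% mitochondrial UMIs) were applied to the deposited matrices, and the numbers of cells left need not be those of the study. Doublets were not removed. Scrublet (scanpy 1.11.5) called 0 of 5516 cells in run 1, where it did not work, and 431 and 209 cells in runs 2 and 3. An alternative removed the 8% of cells with the highest scores. The other cell gates needed at least 2 (B, type 17) or 3 (myeloid, NK receptor) of their markers, and the γδ gate at least 2 UMIs of Trdc.

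UMIs were summed by gate, cycling status and run for sums of at least 30 cells and tested in R 4.3.3 with edgeR 4.0.16 (TMM, filterByExpr, quasi-likelihood test, two-sided, run as block) and the p-values adjusted by Benjamini-Hochberg across each tested table. Calls are adjusted p-values under 0.05. The 42 gate genes were not tested. On counts simulated for the DN3 cycling comparison (9591 genes), 92 of 100 changes of 2-fold and 100 of 100 of 4-fold were recovered, with 16 false among 208 calls. For DN2 against DN1 (9171 genes), 56 and 91 of 100 were recovered, with 8 false among 155. The simulation gave all genes the same dispersion and no difference between runs other than depth. It changed only genes above a limit on mean counts, so that these rates need not hold for the real data. Alternatives were other scalings, DESeq2 1.42.0, no block, no filter, leaving out runs, no upper limit on genes, doublet removal, stricter gates and thinning to 2000 UMIs.

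The members, the gene lists and the tests were chosen with earlier results of these data known. Thresholds of the gates were set after values, those of the members included, had been seen. From each list, the genes that passed the test in the most comparisons were named, with the genes behind small counts. Gene positions are from GENCODE and promoters from RefSeq, where all 3 members matched.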

Additional observations from a re-analysis of the deposited data

How the results depend on the processing

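Of 201 refitted differences of the members, 171 kept their direction and side of the threshold, 21 lost the call, 1 gained it and 8 turned. Every γδ difference kept its call under all 12 alternatives. With no replicate block, DN3 cycling gave -1.41 for Rag1 (adjusted p = 0.194), -0.42 for Rag2 (0.515) and -0.48 for Dntt (0.352), DN2 cycling -0.72 for Rag1 and -0.28 for Dntt, DN2 against DN1 +0.81 for Dntt, and DN3 against DN2 3.59 for Rag1 and 1.67 for Rag2, none of which was called. The labels number no replicates, and the block is the run. With UMIs per cell, a scaling chosen after seeing the data, DN3 cycling gave -9.10e-05, +0.86 and +0.82 for Rag1, Rag2 and Dntt, DN2 cycling +0.10, +1.08 and +0.57, and the selection comparison +0.10 for Rag1 and +0.023 for Dntt. Calls then split 7636 higher and 56 lower for DN2 cycling (1522 and 1664 with TMM), 189 and 1364 for DN3 against DN2 (662 and 813), and 957 and 1770 for γδ against DN3 (1383 and 1253).

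For Rag2 with DN3 cycling, the call was also lost with DESeq2 size factors (-0.40, adjusted p = 0.0550), DESeq2 (-0.41, 0.235), doublets removed (-0.41, 0.0513), stricter gates (-0.39, 0.138) and thinned cells (-0.46, 0.141). Leaving out 1 run gave -0.54 to -0.18 for Rag2 and -0.54 to -0.36 for Dntt there. With DN2 cycling, Rag1 was -0.58 with DESeq2, +0.10 with stricter gates and -0.94 to -0.20 without 1 run, and Dntt was -0.25 with DESeq2, -0.090 with stricter gates and -0.32 to -0.13 without 1 run. For Dntt between DN2 and DN3, leaving out 1 run gave -0.14 to 0.00139. Leaving out a run of DN2 against DN1 was not run, since 1 run would remain.

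The numbers of genes called were 3938 for DN3 cycling (DESeq2 2188, no block 265, stricter gates 2532, thinned 2083, UMIs per cell 8327), 3186 for DN2 cycling (1327, 186, 1603, 1551 and 7692 in that order, and 1866 to 3030 without 1 run), 399 for DN2 against DN1 (DESeq2 114, no block 0, stricter gates 650, thinned 169), 1475 for DN3 against DN2 (DESeq2 595, no block 0, thinned 853, without 1 run 889 to 1676), 2636 for γδ against DN3 (DESeq2 1224, no block 316, without 1 run 1479 to 2978) and 4 for the selection genes (DESeq2 size factors 1, no filter 7, thinned 2, DESeq2, no block and doublets removed 0, without 1 run 0 to 10). In the non-cycling DN3 gate, stricter gates moved Rag1 to 226 CPM in run 1 and 524 CPM in run 3, and Dntt to 1438 and 1282 CPM. Thinning moved Dntt to 1643 CPM in run 1 and 1915 CPM in run 2. Unthinned co-detection was 11.1%, 11.8% and 22.5%. Apart from the effect of fewer samples or cells, the cause of these changes was not tested.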
